A study of Mus musculus with 28 samples.

Results

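Endothelial cells (EC) of mouse embryos were compared between embryonic days E8.5 and E9.5 by RNA sequencing. The comparison rests on 6 of the study's 28 libraries, the 3 EC libraries of each day, and covers all genes. Each library was made from 100 sorted cells of embryos labelled 23GFP transgenic, a reporter carried by every group of the study. The name is used in the field for green fluorescent protein under an enhancer of Runx1. The tissue is labelled PAS+VU on both days, abbreviations that the labels leave unexpanded, and the series' design text places the cells in the dorsal aorta. Hemogenic endothelium (HE), the endothelium that gives rise to blood cells, was sampled with the same reporter, tissue label and cell number on the same days (4 libraries at E8.5, 3 at E9.5) and serves below as a comparison. A later EC group of 3 libraries came from E10.5 AGM+VU. The sources used here state neither the gates that separated EC from HE nor the number of embryos behind a library. The design text calls the replicates biological, but no label says that they came from separate litters. The p-values therefore measure only the spread between libraries, estimated over all 28 of the study, part of which may be technical. Each library belongs to a single day, so embryonic day and processing batch cannot be told apart.

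Endothelial cells of the early embryo arise from mesoderm under the ETS factor Etv2, and the first vessels are then remodelled as the heart starts to pump. Arterial identity is set by VEGF, Notch and SoxF factors and venous identity by the nuclear receptor COUP-TFII. Shear stress from flowing blood induces the transcription factors Klf2 and Klf4, and a basement membrane of type IV collagen and laminin forms around the tube.

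The 6 libraries held 20234652 to 31405603 counts and detected 13990 to 15497 genes each. Levels are given as CPM, counts scaled to each library's total and its TMM factor, and values of a day follow the order of replicates 1, 2 and 3. Libraries of a group correlated at 0.942 to 0.981 at E8.5 and 0.971 to 0.979 at E9.5 (Pearson, log2(CPM + 1), across genes), against 0.911 to 0.936 between days. Shares of single genes ran with the day: Actb took 0.808 to 1.72% of counts at E8.5 and 2.80 to 2.93% at E9.5, and the ribosomal RNA locus Rn45s took 0.188 to 0.605% and 1.02 to 2.34%. E8.5 replicate 3 stood apart from the other E8.5 libraries (0.942 and 0.944 with them, 0.981 between them). E9.5 replicate 3 stood apart in genes of mesenchyme, described below. The part of these features in the results was not tested. The endothelial label was matched by its markers: Cdh5, Pecam1, Kdr, Tek, Tie1, Emcn, Esam, Cldn5, Eng and Egfl7 were detected in all 6 libraries, whereas Ptprc, which encodes the pan-leukocyte antigen CD45, had 0 counts in 5 of them. Other leukocyte markers, of which some rose, are described below.

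Of 15238 genes tested, 2999 differed between the days (19.7%, edgeR quasi-likelihood test, adjusted p under 0.05). At E9.5 1543 were higher (10.1%) and 1456 lower (9.56%), and these 2 shares are the background for the counts of list members below. The median log2 difference of all genes, E9.5 minus E8.5, was 0.05. The median size was 1.77 on the log2 scale for genes called higher and 1.23 for genes called lower. At least 4-fold differences numbered 674 among the rises and 223 among the falls. Of the genes called higher, 97 had no counts at all in the E8.5 libraries, and 30 of those called lower had none at E9.5. The count of calls was 1714 without E9.5 replicate 3, 1926 without E8.5 replicate 1 and 1979 without E9.5 replicate 1, and 1358 genes were called whichever EC library was left out. Fitted on the 6 EC libraries alone, edgeR called 2626 genes and kept 2250 of the 2999, and limma voom with quality weights on all libraries called 5559. In bulk libraries of this kind, fewer cells of a type and less RNA per cell cannot be told apart.

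**Figure D1:**
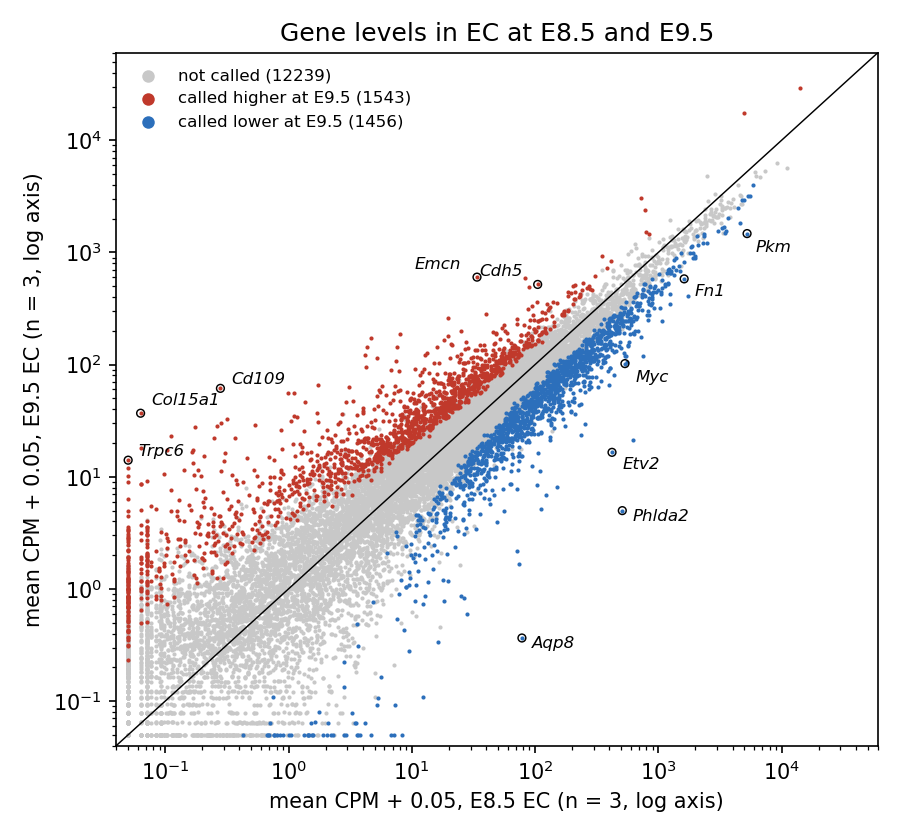
Mean level of each tested gene in EC at E8.5 (x axis) and E9.5 (y axis), in CPM + 0.05 on log axes, with 3 libraries a day; red and blue points are the 1543 genes called higher and the 1456 called lower at E9.5, and the line marks equal levels. Rises reach further from the line than falls, above all among genes near 0 CPM at E8.5.

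The endothelial genes that were called were nearly all higher at E9.5. Of 31 pan-endothelial genes tested, 16 rose and 1 fell, with a median log2 difference of 0.97. Emcn, an endothelial sialomucin, was at 21.9, 17.9 and 61.4 CPM at E8.5 and 574, 675 and 557 CPM at E9.5. The groups did not overlap, and the E9.5 libraries lay close together (log2 difference 4.16 ± 0.48, adjusted p = 1.4e-06). Cdh5, the cadherin of endothelial junctions, was at 91.4, 94.8 and 129 CPM at E8.5 and 519.9, 383 and 652 CPM at E9.5, and every E9.5 library was above every E8.5 library (log2 difference 2.30 ± 0.30, adjusted p = 9.1e-06). Cd93, an endothelial surface receptor, was at 63.3, 46.5 and 141 CPM at E8.5 and 585, 575 and 604 CPM at E9.5, the highest of the E8.5 values being that of replicate 3 (log2 difference 2.82 ± 0.33, adjusted p = 2.5e-06). Clec14a, another endothelial surface lectin, rose from 7.83 ± 6.85 to 87.3 ± 17.9 CPM (mean ± SD, n = 3 and 3 throughout; log2 difference 3.47 ± 0.43, adjusted p = 5e-06). Cd34 rose from 209.9 ± 91.3 to 510.3 ± 26.9 CPM (log2 difference 1.28 ± 0.26, adjusted p = 0.001).

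A single member fell, and several did not pass the test. The fall was Egfl7, a secreted endothelial protein, at 1263, 1169.8 and 687 CPM at E8.5 and 361, 322 and 267 CPM at E9.5, all E9.5 libraries below all E8.5 libraries (log2 difference -1.71 ± 0.29, adjusted p = 0.00022). The receptors Kdr and Tek and the adhesion molecules Pecam1 and Esam did not pass the test. Kdr, the main VEGF receptor, was at 270.1, 324 and 375 CPM at E8.5 and 398, 364 and 418 CPM at E9.5 (log2 difference 0.28 ± 0.26, adjusted p = 0.48). Tek, the angiopoietin receptor, was at 243, 179 and 317 CPM at E8.5 and 278, 238 and 259 CPM at E9.5, and its groups overlapped (log2 difference 0.07 ± 0.22, adjusted p = 0.87). Pecam1 averaged 183 ± 15.9 and 255 ± 35.8 CPM (0.48 ± 0.32, adjusted p = 0.3), Esam 213 ± 20.1 and 175 ± 35.5 CPM (-0.28 ± 0.22, adjusted p = 0.38) and Eng, a TGF-beta co-receptor, 57.8 ± 15.9 and 49.4 ± 19.3 CPM (-0.23 ± 0.33, adjusted p = 0.67). Tie1 and Flt1 were called higher (log2 difference 1.73 ± 0.51, adjusted p = 0.019; log2 difference 1.08 ± 0.31, adjusted p = 0.014), but Tie1 lost the call without E8.5 replicate 1 (adjusted p = 0.071) or E9.5 replicate 3 (0.15), and Flt1 without E8.5 replicate 1, E9.5 replicate 1 or E9.5 replicate 3 (0.059 to 0.07).

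**Figure D2:**
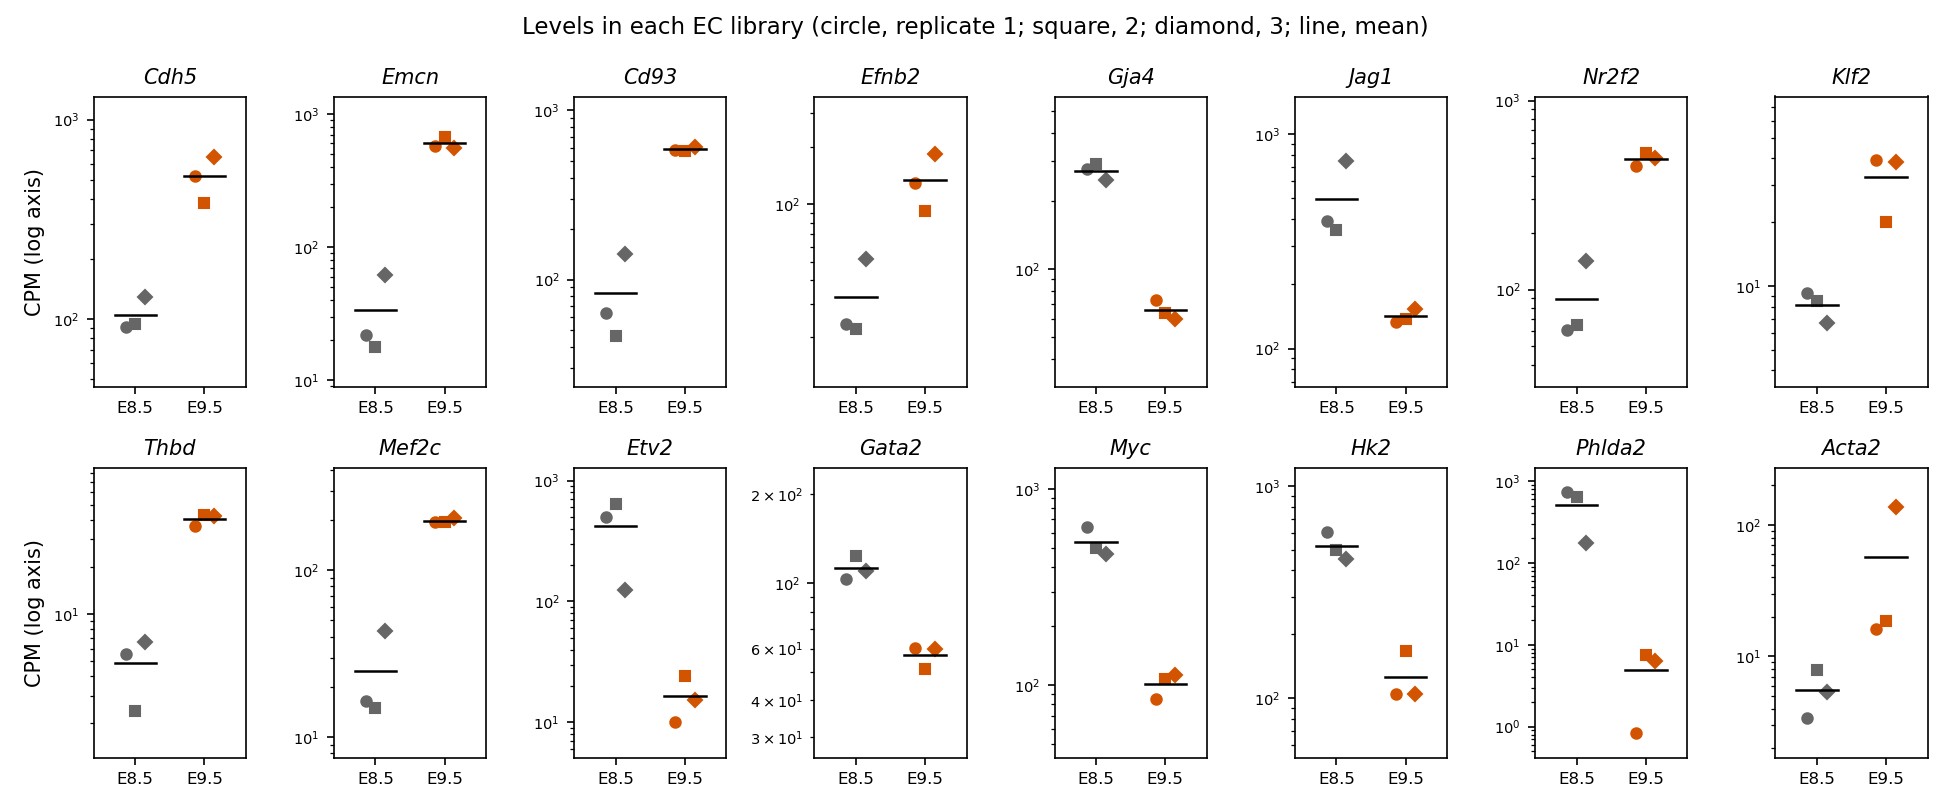
Level of 16 genes in each of the 6 EC libraries, in CPM on log axes that differ between panels; symbols mark replicates 1 to 3 and lines the group means. The groups do not overlap in any of these panels. At E8.5 replicate 3 stands below the others for Etv2 and Phlda2, and above them for Emcn, Cd93, Efnb2, Jag1, Nr2f2 and Mef2c. At E9.5 replicate 3 stands above the others for Acta2.

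Arterial and Notch genes moved in both directions. Of 25 tested, 10 rose and 2 fell, with a median log2 difference of 1.04. Gja5, which encodes the arterial connexin 40, was at 0.0806, 0.0785 and 0.188 CPM at E8.5 and 10.48, 11 and 28.6 CPM at E9.5 (log2 difference 7.22 ± 0.85, adjusted p = 2.2e-06). Efnb2, the arterial ephrin, was at 23.6, 22.1 and 51.6 CPM at E8.5 and 129, 91.8 and 184 CPM at E9.5, and E8.5 replicate 3 was the highest of its group (log2 difference 2.06 ± 0.50, adjusted p = 0.0049). The Notch ligand Dll1 had 1 count over the E8.5 libraries and 598 at E9.5, a ratio of 565 after depth scaling (95% counting interval 101 to 22400), at 0, 0.0392 and 0 CPM at E8.5 and 8.86, 6.86 and 9.88 CPM at E9.5. Notch4 rose from 4.07 ± 1.09 to 20.6 ± 10.7 CPM (log2 difference 2.34 ± 0.45, adjusted p = 0.00075) and the transcription factor Mecom from 8.03 ± 4.23 to 59.3 ± 11.4 CPM (log2 difference 2.90 ± 0.40, adjusted p = 2.3e-05).

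The 2 members that fell are also arterial genes. Gja4, which encodes connexin 37, was at 277, 290.2 and 249 CPM at E8.5 and 72.7, 63.6 and 60.1 CPM at E9.5, so that the 2 arterial connexins moved in opposite directions (log2 difference -2.05 ± 0.36, adjusted p = 0.00033). Jag1, a Notch ligand, was at 391.7, 357 and 745 CPM at E8.5 and 133, 137 and 153 CPM at E9.5 (log2 difference -1.82 ± 0.34, adjusted p = 0.00052). Dll4, the ligand most tied to arterial endothelium, was at 1.29, 1.37 and 23.9 CPM at E8.5 and 29.9, 19.3 and 44.0 CPM at E9.5, and E8.5 replicate 3 lay within the E9.5 values (log2 difference 1.83 ± 0.67, adjusted p = 0.055). Without that library its log2 difference was 4.55 with an adjusted p of 4.1e-06. Dll4 was also called without E9.5 replicate 2 (0.042), by DESeq2 (0.038) and voom (4.3e-05), with the other scalings and filters and with the replicate block (4.3e-05 to 0.049 over these settings). Notch1 (0.61 ± 0.26, adjusted p = 0.096) and the Notch target Hey1 (-0.01 ± 0.48, adjusted p = 1) did not pass the test with all libraries, and Notch1 passed it without E8.5 replicate 3 (0.04) and with voom (0.0023).

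Venous and lymphatic genes had 6 rises among 13 tested, with a median log2 difference of 1.41. Nr2f2, which encodes the venous regulator COUP-TFII, was at 61.2, 64.8 and 141 CPM at E8.5 and 448, 526 and 495 CPM at E9.5 (log2 difference 2.46 ± 0.71, adjusted p = 0.015). Its groups did not overlap, but the call was lost without E8.5 replicate 1 (adjusted p = 0.068) or replicate 2 (0.059). Stab1, a scavenger receptor, was at 32.2, 22.8 and 25.5 CPM at E8.5 and 152, 117 and 146 CPM at E9.5 (log2 difference 2.36 ± 0.35, adjusted p = 5.1e-05), and its relative Stab2 at 0.886, 0 and 0.0627 CPM at E8.5 and 21.3, 19 and 25.8 CPM at E9.5 (log2 difference 6.03 ± 1.58, adjusted p = 0.0084; 9.53 without E8.5 replicate 1). Lyve1, the hyaluronan receptor of lymphatic and some early embryonic endothelium, rose from 4.25 ± 3.31 to 28.5 ± 13.8 CPM (log2 difference 2.76 ± 0.63, adjusted p = 0.0032). Ephb4, the venous partner of Efnb2, rose from 44.0 ± 6.34 to 97.8 ± 15.5 CPM (log2 difference 1.15 ± 0.37, adjusted p = 0.03), a call kept in 1 of the 6 runs that each left out 1 EC library. The list had 3 rises without E8.5 replicate 1 or replicate 2, 3 after the correction for gene length described below, and 10 with voom.

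Genes of vessel growth were called mainly as rises. Of 17 VEGF and angiopoietin signalling genes 5 rose, with a median log2 difference of 0.38. Nrp1, a co-receptor for VEGF and semaphorins, was at 81.3, 91.1 and 113 CPM at E8.5 and 328, 259 and 407 CPM at E9.5 (log2 difference 1.80 ± 0.37, adjusted p = 0.0012). Angpt1, a ligand of Tek, had 2 counts over the E8.5 libraries and 221 at E9.5, a ratio of 104 (95% counting interval 28.6 to 868). The list had 3 rises without E8.5 replicate 1, without E9.5 replicate 3 or with the length correction, and 8 with voom. Among 16 genes of tip cells and sprouting, 6 rose (10 with voom) and 1 fell, with a median of 1.11. Apln, a peptide of sprouting endothelium, was at 0.0403, 1.06 and 1.88 CPM at E8.5 and 20.005, 28.4 and 45.4 CPM at E9.5 (log2 difference 5.01 ± 1.09, adjusted p = 0.0021), while its receptor gene Aplnr was at 119.8, 116 and 161 CPM at E8.5 and 275, 314 and 309.7 CPM at E9.5 and did not pass the test (log2 difference 1.18 ± 0.52, adjusted p = 0.11; called by voom, 0.00013, and with only the 6 libraries, 0.0046). Robo4, an endothelial guidance receptor, rose from 2.91 ± 1.96 to 21.5 ± 10.4 CPM (log2 difference 2.86 ± 0.50, adjusted p = 3e-04), and Esm1, which encodes the proteoglycan endocan, was at 0.0806, 0.0392 and 0.0627 CPM at E8.5 and 20.005, 23.9 and 25.3 CPM at E9.5 (log2 difference 8.45 ± 1.30, adjusted p = 1e-04). The member that fell was Plaur, the urokinase receptor, at 93.4, 90.6 and 45.1 CPM at E8.5 and 11.6, 14.9 and 19.3 CPM at E9.5 (log2 difference -2.32 ± 0.35, adjusted p = 5.5e-05).

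Genes of flow response and vascular tone, taken as 1 list, were called higher at E9.5 more often than lower. Of 22 tested, 11 rose and 3 fell, with a median log2 difference of 1.44. The length correction left 8 rises and 2 falls. Klf2, a factor induced by shear stress, was at 9.31, 8.48 and 6.71 CPM at E8.5 and 39.2, 20.2 and 38.5 CPM at E9.5 (log2 difference 2.00 ± 0.40, adjusted p = 0.0011), and Klf4 at 1.69, 0.903 and 1.69 CPM at E8.5 and 8.32, 7.77 and 9.88 CPM at E9.5 (log2 difference 2.60 ± 0.51, adjusted p = 0.00087). Thbd, the anticoagulant receptor thrombomodulin, was at 5.56, 2.39 and 6.64 CPM at E8.5 and 36.5, 43.0 and 42.0 CPM at E9.5, with the groups far apart (log2 difference 3.06 ± 0.39, adjusted p = 7e-06). Pde2a, a cyclic nucleotide phosphodiesterase, rose from 1.69 ± 1.59 to 66.2 ± 7.33 CPM (log2 difference 5.25 ± 0.59, adjusted p = 1.3e-06). Nos3, the endothelial nitric oxide synthase, was called higher with all libraries (log2 difference 1.17 ± 0.41, adjusted p = 0.045) and lost the call whichever EC library was left out (0.059 to 0.14) and with the replicate block (0.051). The 3 falls were Ednrb, an endothelin receptor (137 ± 11.2 to 33.2 ± 9.43 CPM; -2.05 ± 0.43, adjusted p = 0.0015), Plaur and Procr, the protein C receptor (16.8 ± 7.38 to 6.26 ± 0.795 CPM; -1.42 ± 0.47, adjusted p = 0.035). The call of Procr was kept in 1 of the 6 runs that each left out a library, and lost with voom (0.07) and with only the 6 libraries (0.054). The list had 7 rises without E8.5 replicate 1, E8.5 replicate 2 or E9.5 replicate 3.

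The sequence before the start of Klf2 is printed because its induction by flow is known to pass through a MEF2 site, and Mef2c, which encodes a MEF2 factor, was among the genes that rose with it. Mef2c was at 16.5, 15.0 and 43.4 CPM at E8.5 and 193, 195 and 205 CPM at E9.5 (log2 difference 2.99 ± 0.32, adjusted p = 5.5e-07). The 250 bases before the RefSeq start of Klf2 (build GRCm38.p6, chr8:72318812-72319061, plus strand) hold 1 match to the MEF2 consensus, in capitals, beginning 118 bases before the start.
Klf2: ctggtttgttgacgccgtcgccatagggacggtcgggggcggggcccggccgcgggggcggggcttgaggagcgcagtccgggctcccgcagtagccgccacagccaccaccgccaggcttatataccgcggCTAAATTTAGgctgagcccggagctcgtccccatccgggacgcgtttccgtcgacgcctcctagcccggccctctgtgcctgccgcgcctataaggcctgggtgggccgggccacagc
A match on either strand is present in 45 of 11308 such windows of the tested genes with a listed promoter (0.398%). The match is a description of these letters, and no binding was measured here.

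Transcription factors of the endothelium moved in both directions. Of 22 SoxF, ETS and FOX endothelial factors, 5 rose (9 with voom) and 3 fell (median log2 difference 0.44). Etv2, which drives mesoderm toward endothelium, was at 502, 638 and 124 CPM at E8.5 and 10.1, 24.0 and 15.3 CPM at E9.5 (log2 difference -4.68 ± 0.81, adjusted p = 0.00027). It was lowest at E8.5 in replicate 3, and still every E9.5 library was below every E8.5 library. Gata2 was at 103, 123 and 110.1 CPM at E8.5 and 60.1, 51.1 and 59.9 CPM at E9.5, a narrow range within each day (log2 difference -0.98 ± 0.21, adjusted p = 0.0017), and Hhex, a homeobox factor of early endothelium and endoderm, fell from 126 ± 2.12 to 73.1 ± 19.1 CPM (log2 difference -0.78 ± 0.23, adjusted p = 0.016). Hhex lost the call without E9.5 replicate 2 (adjusted p = 0.068) or replicate 3 (0.12). The rises were led by Mef2c, Foxp1 (5.70 ± 4.73 to 65.0 ± 14.9 CPM; 3.49 ± 0.49, adjusted p = 2.9e-05), Foxo1 (16.1 ± 5.89 to 68.5 ± 7.21 CPM; 2.09 ± 0.31, adjusted p = 4.9e-05) and Foxc1 (1.06 ± 0.719 to 34.5 ± 13.9 CPM; 5.04 ± 0.84, adjusted p = 0.00019). Sox17, a SoxF factor of arterial endothelium, was at 9.35, 6.40 and 12.3 CPM at E8.5 and 28.8, 21.5 and 43.1 CPM at E9.5 (log2 difference 1.74 ± 0.45, adjusted p = 0.0076), with an adjusted p of 0.052 without E9.5 replicate 3. Sox18 averaged 29.8 ± 4.96 and 53.5 ± 24.4 CPM (0.84 ± 0.47, adjusted p = 0.21).

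Blood transcription factors gave 3 rises and 2 falls among 25 tested, shares near those of all genes (median 0.21). Runx1, required for blood cells to emerge from endothelium, was at 4.43, 5.14 and 1.25 CPM at E8.5 and 3.12, 3.37 and 3.76 CPM at E9.5 (log2 difference -0.10 ± 0.36, adjusted p = 0.88). The groups overlapped, and all 6 values were low. Tal1 averaged 43.3 ± 15.0 and 34.2 ± 9.44 CPM (-0.34 ± 0.30, adjusted p = 0.46) and Lmo2 82.3 ± 6.27 and 151 ± 51.8 CPM (0.88 ± 0.35, adjusted p = 0.076), which passed without E9.5 replicate 2 (0.044), by DESeq2 and voom, with the stricter filter, with only the 6 libraries and with the replicate block (0.014 to 0.046). The rises were Mecom, Gata3 (1.26 ± 0.37, adjusted p = 0.018) and Cbfb, the partner of Runx factors (0.98 ± 0.31, adjusted p = 0.025), and the falls were Gata2 and Hhex. Gata3 and Cbfb both lost their calls without E8.5 replicate 1, E8.5 replicate 2 or E9.5 replicate 3, and Cbfb also without E9.5 replicate 1 (0.061 to 0.078 for Gata3, 0.064 to 0.097 for Cbfb). Cbfb also lost it with a correction for GC content (0.091).

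Matrix and cytoskeletal genes were called mainly as rises. Of 36 extracellular matrix and basement membrane genes, 15 rose and 1 fell, with a median log2 difference of 1.12. Col4a2, a chain of type IV collagen, was at 92.5, 84.2 and 115 CPM at E8.5 and 239, 172 and 337 CPM at E9.5 (log2 difference 1.36 ± 0.28, adjusted p = 0.0012). Fbn2, a microfibril protein, rose from 95.5 ± 33.9 to 279 ± 28.7 CPM (log2 difference 1.55 ± 0.28, adjusted p = 0.00041), and Bgn, a small proteoglycan, was at 10.8, 10.8 and 40.7 CPM at E8.5 and 181, 177 and 102 CPM at E9.5, with the lowest E9.5 value in replicate 3 (log2 difference 2.89 ± 0.58, adjusted p = 0.001). The fall was Fn1, which encodes fibronectin, the matrix protein of early vessels, at 1533, 1509 and 1819 CPM at E8.5 and 631, 445 and 667 CPM at E9.5 (log2 difference -1.48 ± 0.25, adjusted p = 0.00022). Without E9.5 replicate 3 the list had 8 rises and a median of 0.65, and with the length correction 10 rises and a median of 0.46.

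Among 33 genes of actomyosin and of the YAP pathway, 16 rose and 1 fell (median 0.87), with 9 rises without E9.5 replicate 3 and 10 without E8.5 replicate 1. Tagln, an actin-binding protein best known from smooth muscle, was at 1.61, 1.06 and 0.125 CPM at E8.5 and 39.7, 57.7 and 71.5 CPM at E9.5, already high in E9.5 replicates 1 and 2 (log2 difference 5.83 ± 0.91, adjusted p = 9.2e-05). Myl9, a myosin light chain, was at 1.05, 4.00 and 0 CPM at E8.5 and 19, 27.8 and 45.8 CPM at E9.5 (log2 difference 4.13 ± 0.72, adjusted p = 0.00029), and Vcl, which encodes vinculin, rose from 53.7 ± 20.9 to 213 ± 24.5 CPM (log2 difference 1.99 ± 0.34, adjusted p = 0.00022). Amotl1, a binding partner of YAP, was at 62.0, 61.6 and 48.6 CPM at E8.5 and 196, 198 and 204 CPM at E9.5 (log2 difference 1.80 ± 0.33, adjusted p = 0.00046). Cyr61, a classical YAP target, was the member that fell (105 ± 32.2 to 38.5 ± 6.86 CPM; -1.44 ± 0.35, adjusted p = 0.0046). The summed level of 21 markers of mesenchyme and smooth muscle ran from 90.7 to 114 CPM at E8.5 and from 117 to 681 CPM at E9.5, and its part in the rises of matrix and actomyosin genes was not tested.

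Signalling genes rose more often than they fell in the TGF-beta and Wnt lists. Of 38 BMP and TGF-beta signalling genes, 10 rose and 1 fell (median 0.66), with 3 falls without E8.5 replicate 3, with only the 6 libraries or with the length correction, and 6 with voom. Tgfbr2, the type II receptor of TGF-beta, was at 7.41, 11.1 and 10.3 CPM at E8.5 and 39.0, 49.6 and 58.9 CPM at E9.5 (log2 difference 2.36 ± 0.28, adjusted p = 3.4e-06), and its type I partner Tgfbr1 at 19, 32.5 and 21.1 CPM at E8.5 and 84.5, 77.0 and 75.9 CPM at E9.5 (log2 difference 1.71 ± 0.27, adjusted p = 9.3e-05). The fall was Id1, a target of BMP signalling, at 185, 154 and 59.4 CPM at E8.5 and 21.4, 32.5 and 41.8 CPM at E9.5 (log2 difference -2.06 ± 0.40, adjusted p = 0.00072). Of 38 Wnt signalling genes, 11 rose and 2 fell (median 1.07), with 7 rises without E8.5 replicate 1 and 6 without E9.5 replicate 3. The receptor gene Fzd4 was at 0.282, 1.33 and 1.63 CPM at E8.5 and 16.6, 13.4 and 15.5 CPM at E9.5 (log2 difference 3.82 ± 0.49, adjusted p = 7e-06), Fzd6 rose from 0.804 ± 0.484 to 9.65 ± 2.65 CPM (log2 difference 3.54 ± 0.60, adjusted p = 0.00022), and Tcf7l2, a nuclear effector, rose from 62.1 ± 9.06 to 135 ± 17.1 CPM (log2 difference 1.12 ± 0.19, adjusted p = 0.00028). Ctnnb1, which encodes beta-catenin of junctions and of Wnt signalling, rose from 304 ± 91.7 to 614 ± 51.4 CPM (log2 difference 1.02 ± 0.27, adjusted p = 0.0083). The falls were the secreted inhibitor Dkk1 (14.4 ± 1.98 to 1.94 ± 0.339 CPM; -2.89 ± 0.72, adjusted p = 0.0057) and Lgr5 (8.84 ± 3.74 to 0.992 ± 0.479 CPM; -3.15 ± 0.96, adjusted p = 0.021). Lgr5 lost its call without E8.5 replicate 3, E9.5 replicate 1 or E9.5 replicate 3 (0.053 to 0.098).

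Retinoic acid genes were divided, with 4 rises and 3 falls among 18 (median -0.19). The degrading enzymes moved in opposite directions. Cyp26a1 was at 116, 82.9 and 114 CPM at E8.5 and 7.53, 4.66 and 12.8 CPM at E9.5 (log2 difference -3.65 ± 0.67, adjusted p = 0.00048), whereas Cyp26b1 was at 0.0403, 0 and 0.313 CPM at E8.5 and 18.4, 7.21 and 25.9 CPM at E9.5 (log2 difference 7.43 ± 0.72, adjusted p = 1.2e-07). Crabp1, a binding protein, fell from 112 ± 27.3 to 5.14 ± 2.29 CPM (log2 difference -4.45 ± 1.19, adjusted p = 0.01), with an adjusted p of 0.052 without E9.5 replicate 1 and 0.055 without replicate 3. The receptor gene Rarb rose from 0.707 ± 0.772 to 9.80 ± 4.21 CPM (log2 difference 3.73 ± 0.81, adjusted p = 0.0021). The receptor genes Rxra (1.77 ± 0.63, adjusted p = 0.048) and Rxrb (-1.29 ± 0.44, adjusted p = 0.038) were also called, and each call was lost in at least 4 of the 6 runs that left out an EC library (0.083 to 0.17 and 0.081 to 0.17). Rxra was also lost with DESeq2 size factors, without the filter and with only the 6 libraries (0.051 to 0.13), and Rxrb in the latter 2 settings (0.062 to 0.067). The list had 1 fall without E9.5 replicate 1 or replicate 3, 5 with DESeq2 and 7 with voom.

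**Figure D3:**
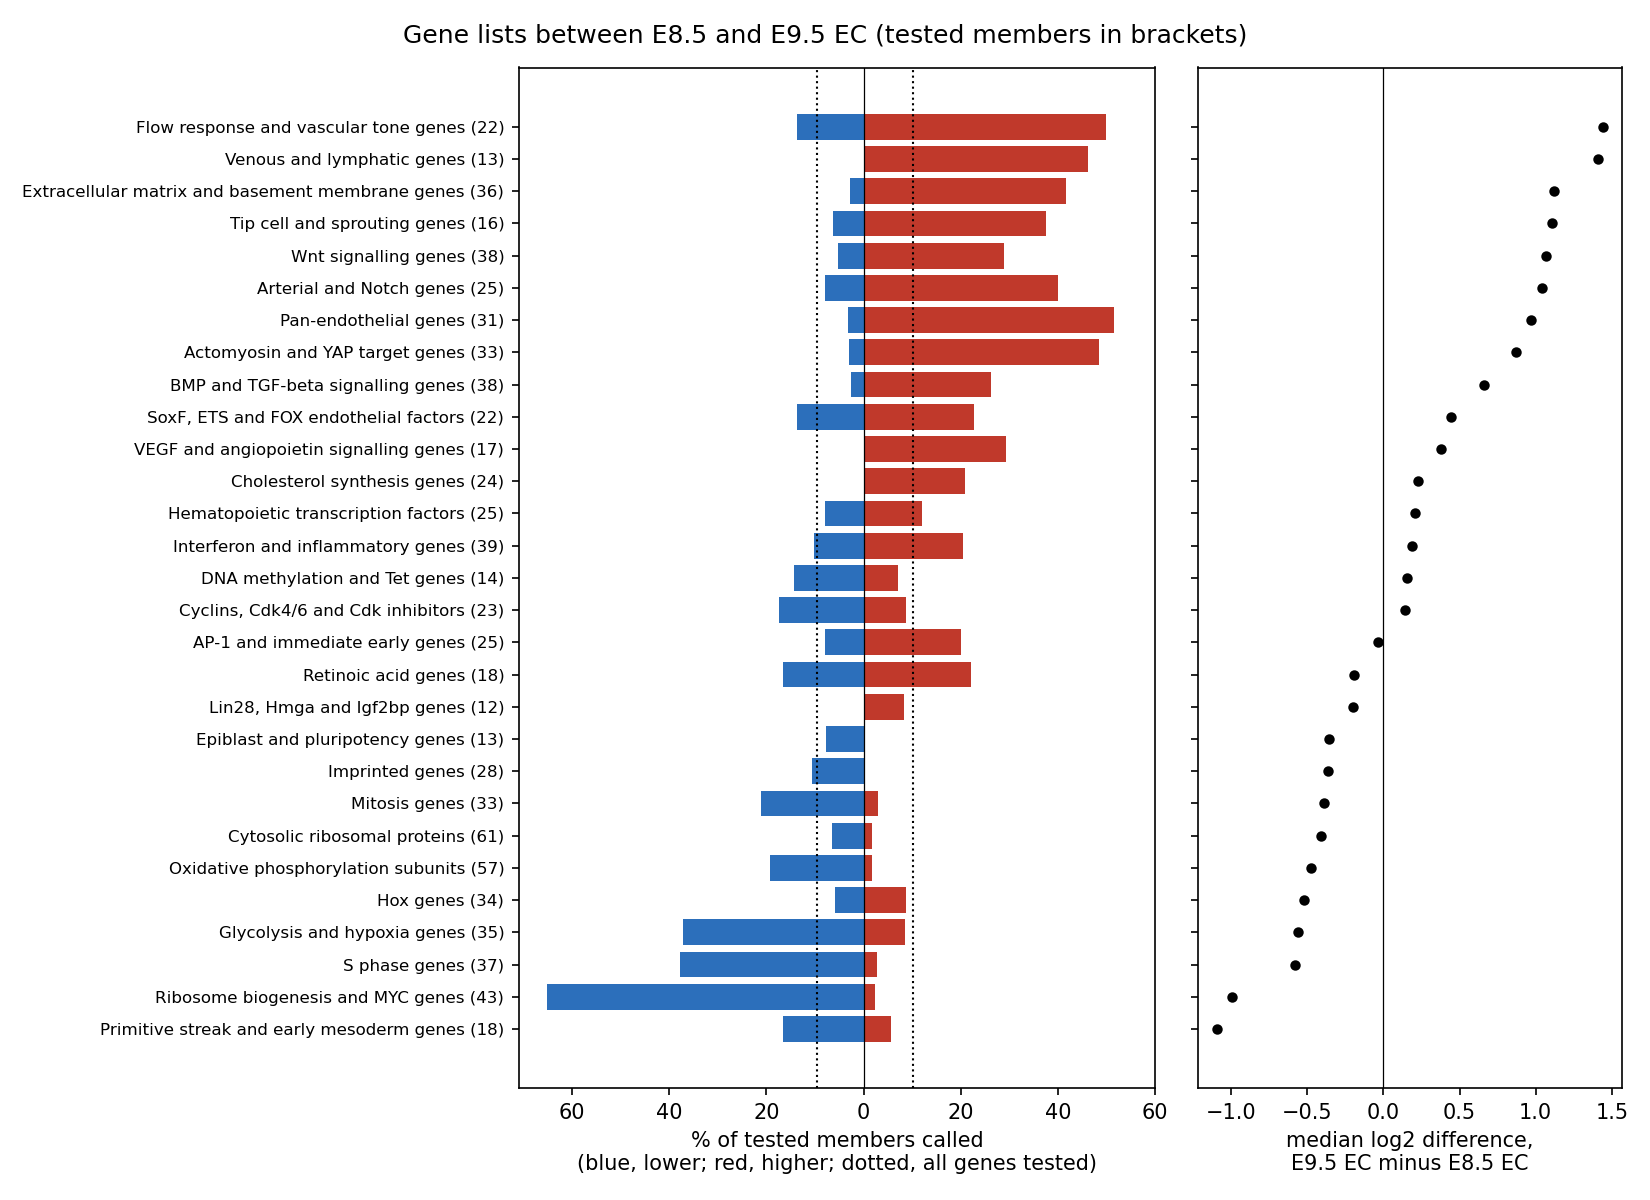
Share of tested members of each gene list called higher (red, right) or lower (blue, left) at E9.5 in %, and the list's median log2 difference, ordered by that median; dotted lines mark the shares over all tested genes, 10.1% and 9.56%. The flow response and vascular tone, venous, matrix and pan-endothelial lists lie to the right, and ribosome biogenesis, S phase and glycolysis to the left.

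The list with the largest share of falls was that of ribosome biogenesis and MYC genes, where 28 of 43 fell and 1 rose, with a median log2 difference of -0.99. Myc, a regulator of growth and ribosome production, was at 642, 499.7 and 466 CPM at E8.5 and 85.3, 108 and 112 CPM at E9.5 (log2 difference -2.39 ± 0.45, adjusted p = 0.00064). The member that rose was its relative Mycn, at 23.5, 27.7 and 14.2 CPM at E8.5 and 66.0, 51.7 and 93.5 CPM at E9.5 (log2 difference 1.69 ± 0.34, adjusted p = 0.001), so that the 2 Myc family genes moved in opposite directions. Bop1, needed to mature the large ribosomal subunit, was at 272, 178 and 133 CPM at E8.5 and 40.6, 36.2 and 35.9 CPM at E9.5 (log2 difference -2.37 ± 0.38, adjusted p = 0.00014). Grwd1, a ribosome assembly chaperone, was at 453, 371 and 197 CPM at E8.5 and 59.9, 99.4 and 53.8 CPM at E9.5 (log2 difference -2.26 ± 0.39, adjusted p = 0.00024). Wdr74 fell from 279.5 ± 71.1 to 69.4 ± 12.8 CPM (-2.01 ± 0.32, adjusted p = 9.7e-05), Rrp9, a protein of a small nucleolar RNA complex, from 143 ± 55.6 to 27.2 ± 1.32 CPM (-2.39 ± 0.42, adjusted p = 0.00032), and Nop2, an RNA methyltransferase of the nucleolus, from 271 ± 78.7 to 95.4 ± 26.6 CPM (-1.51 ± 0.31, adjusted p = 0.0013). Leaving out each EC library in turn gave 19 to 25 falls, and the length correction gave 30. Of 61 cytosolic ribosomal proteins, whose counts can be divided among near copies, 4 were called lower and 1 higher, with a median of -0.41. That count of falls ran from 0 (without E8.5 replicate 2 or E9.5 replicate 1) over 1 (without E8.5 replicate 1 or E9.5 replicate 3) to 5 when an EC library was left out, and was 8 with the replicate block, 12 with DESeq2, 19 when only the 6 libraries were fitted and 27 with voom.

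MYC binds the E-box CACGTG, so the promoters of this list were searched for it. The window was the 250 bases before the first listed RefSeq start (GRCm38.p6), and the motif reads the same on both strands. Of 36 list members with a listed promoter, 2 held it (5.56%), against 932 of 11308 tested genes (8.24%), 126 of 1121 genes called lower (11.2%) and 93 of 1130 called higher (8.23%). The 2 were Nop2, which fell, and Utp18, which averaged 53.8 ± 7.62 and 70.5 ± 6.40 CPM (0.39 ± 0.24, adjusted p = 0.27). The Nop2 window is printed as the one among members that fell with a match (chr6:125131633-125131882, plus strand, GRCm38.p6). Its E-box, in capitals, begins 60 bases before the start.
Nop2: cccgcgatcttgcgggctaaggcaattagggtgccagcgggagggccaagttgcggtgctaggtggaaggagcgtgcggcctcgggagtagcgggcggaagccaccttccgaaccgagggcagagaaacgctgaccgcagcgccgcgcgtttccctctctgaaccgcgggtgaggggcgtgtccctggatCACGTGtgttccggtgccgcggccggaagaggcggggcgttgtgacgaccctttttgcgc
Absence of these letters from the other windows says nothing of binding elsewhere in those genes.

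Cell cycle genes that were called mostly fell. Of 37 S phase genes, 14 fell and 1 rose (median -0.58). Mcm5 was at 415, 314 and 323 CPM at E8.5 and 153, 159.7 and 111 CPM at E9.5 (log2 difference -1.31 ± 0.23, adjusted p = 0.00026), and the other subunits of the replicative helicase Mcm7 and Mcm2 fell from 445 ± 48.6 to 188 ± 57.4 CPM and 204 ± 8.34 to 109 ± 9.04 CPM (-1.25 ± 0.25, adjusted p = 0.00095; -0.91 ± 0.20, adjusted p = 0.0025). The list had 5 falls without E9.5 replicate 3, 7 without E9.5 replicate 1, 8 without E8.5 replicate 1 and 9 without E8.5 replicate 3. Of 33 mitosis genes, 7 fell and 1 rose (median -0.39). Plk1, a mitotic kinase, was at 402, 272 and 140.2 CPM at E8.5 and 87.5, 70.6 and 74.2 CPM at E9.5 (log2 difference -1.81 ± 0.34, adjusted p = 0.00059), and Cdc20, an activator of the anaphase-promoting complex, fell from 214 ± 56.1 to 87.3 ± 20.7 CPM (-1.29 ± 0.32, adjusted p = 0.0062). The rise was cyclin A2, Ccna2 (66.0 ± 12.5 to 120.2 ± 9.23 CPM; 0.87 ± 0.26, adjusted p = 0.02), lost without E8.5 replicate 1, E8.5 replicate 2 or E9.5 replicate 3 (0.062 to 0.077) or with the GC correction (0.073). Mitosis falls numbered 2 without E9.5 replicate 3, 4 without E8.5 replicate 1 or E9.5 replicate 1, and 13 with the length correction or with voom. Mki67, a marker of cycling cells, was at 211, 228 and 287 CPM at E8.5 and 409, 338 and 377 CPM at E9.5, and did not pass the test although its groups did not overlap (log2 difference 0.63 ± 0.27, adjusted p = 0.1; called by voom, 0.0042, and with only the 6 libraries, 0.027). Among 23 cyclins, Cdk4/6 and Cdk inhibitors 4 fell and 2 rose (7 and 4 with voom). Cdk4 was at 1300.1, 1229 and 889 CPM at E8.5 and 509, 599.5 and 444 CPM at E9.5 (log2 difference -1.14 ± 0.22, adjusted p = 7e-04), and Ccnd2, a D cyclin, fell from 447 ± 131 to 212 ± 29.6 CPM (-1.07 ± 0.25, adjusted p = 0.004).

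Most called genes of glycolysis and oxidative phosphorylation were lower at E9.5. Of 35 glycolysis and hypoxia genes, 13 fell and 3 rose (median -0.56). Hk2, which encodes hexokinase 2, was at 609, 501 and 455 CPM at E8.5 and 105, 167 and 105 CPM at E9.5 (log2 difference -2.05 ± 0.27, adjusted p = 8.4e-06). Pfkl, a phosphofructokinase, was at 757, 493 and 415 CPM at E8.5 and 107, 107 and 99.0 CPM at E9.5 (log2 difference -2.41 ± 0.38, adjusted p = 1e-04). Pkm, the pyruvate kinase gene and one of the most highly counted here, was at 5921, 4843 and 4981 CPM at E8.5 and 1356, 2066 and 995 CPM at E9.5 (log2 difference -1.83 ± 0.33, adjusted p = 0.00039). The rises were Pfkfb3, the activator of phosphofructokinase most used by endothelium (3.04 ± 1.83 to 16.8 ± 8.44 CPM; 2.48 ± 0.57, adjusted p = 0.0032), Pdk1 (42.1 ± 12.7 to 112 ± 33.4 CPM; 1.42 ± 0.36, adjusted p = 0.0069) and Epas1, which encodes HIF-2 alpha. Epas1 was at 3.91, 3.65 and 18.1 CPM at E8.5 and 36.3, 18.0 and 48.6 CPM at E9.5, with E8.5 replicate 3 within the E9.5 values (log2 difference 2.02 ± 0.48, adjusted p = 0.0042), and its log2 difference was 3.19 without E8.5 replicate 3. It was not called with only the 6 libraries (0.056). Of 57 oxidative phosphorylation subunits, 11 fell and 1 rose (median -0.47), with 6 falls without E8.5 replicate 1 or E9.5 replicate 3, 17 with only the 6 libraries and 31 with voom. Uqcrc1, of complex III, was at 881, 753 and 400.2 CPM at E8.5 and 182, 258 and 156 CPM at E9.5 (log2 difference -1.77 ± 0.38, adjusted p = 0.002). Ndufv1 of complex I fell from 191 ± 21.7 to 65.1 ± 29.9 CPM (-1.56 ± 0.36, adjusted p = 0.0038), and the rise was Cox5a of complex IV, at 38.4, 49.3 and 50.3 CPM at E8.5 and 219.6, 157 and 80.1 CPM at E9.5 (log2 difference 1.73 ± 0.38, adjusted p = 0.0025).

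Genes of the early embryo gave scattered calls. Of 18 primitive streak and early mesoderm genes, 3 fell and 1 rose (median -1.09). Leaving out each EC library in turn gave 1 to 4 falls and medians from -1.97 to 0.133, so the sign of the median depended on single libraries. The summed level of all 29 listed genes was 169 to 727 CPM at E8.5, lowest in replicate 3, and 68.6 to 84.6 CPM at E9.5. Mesp1, a factor of nascent mesoderm, had 139 counts over the E8.5 libraries and 0 at E9.5, at least 49.0-fold lower when the E9.5 group is set to a limit of 3 counts, and Evx1 had 105 and 1, a ratio of 111 (95% counting interval 19.5 to 4430). Both calls were lost in 5 of the 6 runs without an EC library (0.085 to 0.12 and 0.075 to 0.15), that of Mesp1 also with the replicate block (0.059) and that of Evx1 without the filter (0.061). The third fall was Etv2, and the rise was Dll1, a ligand that also acts in the somites. Cdx2 was too low to be tested. Dnmt3a, a DNA methyltransferase, was at 368, 397 and 425 CPM at E8.5 and 156, 161 and 146 CPM at E9.5, with tight groups (log2 difference -1.36 ± 0.21, adjusted p = 6.8e-05), and was the single call among 13 epiblast and pluripotency genes, against 4 with the length correction and 3 with voom. Lin28a, an RNA-binding protein of early embryonic cells, was at 357, 347 and 245 CPM at E8.5 and 82.6, 164 and 88.7 CPM at E9.5, without overlap, and did not pass the test (log2 difference -1.50 ± 0.84, adjusted p = 0.21), but was called by voom (0.00023) and with only the 6 libraries (0.011). Hmga2 was at 282, 346 and 515 CPM at E8.5 and 707, 713 and 738 CPM at E9.5 (log2 difference 0.92 ± 0.26, adjusted p = 0.013), with an adjusted p of 0.072 without E8.5 replicate 1.

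Hox genes, which record position along the body axis, gave 5 calls with edgeR over all libraries, each in the A cluster. Of 34 tested, 3 rose and 2 fell, shares near those of all genes, and the median log2 difference was -0.52. The rises were the anterior genes Hoxa3 (0.857 ± 0.803 to 10.49 ± 4.30 CPM; 3.59 ± 0.95, adjusted p = 0.0085), Hoxa4 and Hoxa5 (1.68 ± 1.35 to 12 ± 3.68 CPM; 2.81 ± 0.65, adjusted p = 0.0035). Hoxa4 was at 0, 0.392 and 0.0627 CPM at E8.5 and 5.61, 5.87 and 6.25 CPM at E9.5 (log2 difference 5.19 ± 1.04, adjusted p = 0.001). The falls were the posterior genes Hoxa9, at 84.2, 100.0 and 32.3 CPM at E8.5 and 36.4, 22.3 and 19.4 CPM at E9.5, with overlapping groups (log2 difference -1.47 ± 0.44, adjusted p = 0.02), and Hoxa10, at 59.4, 44.5 and 55.3 CPM at E8.5 and 15.3, 15.3 and 18.5 CPM at E9.5 (log2 difference -1.69 ± 0.53, adjusted p = 0.025). Each of these falls was lost in 4 of the 6 runs without an EC library (0.075 to 0.11 and 0.066 to 0.082), and both were lost without E8.5 replicate 1, E9.5 replicate 2 or E9.5 replicate 3. Hoxa5 lost its call with only the 6 libraries (0.051). DESeq2 called 4 Hox genes higher and 4 lower, and voom 3 and 10.

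Imprinted genes gave 3 falls among 28 (median -0.36), against 2 rises and 5 falls with DESeq2, 5 and 8 with voom and 3 and 6 with only the 6 libraries. Phlda2, a growth-limiting gene of the placenta, was at 723, 632 and 176 CPM at E8.5 and 0.832, 7.60 and 6.38 CPM at E9.5 (log2 difference -6.69 ± 1.23, adjusted p = 0.00056). Impact fell from 401 ± 90.6 to 153 ± 23.3 CPM (-1.39 ± 0.28, adjusted p = 0.0012), and Meg3 from 531 ± 151 to 193 ± 88.0 CPM (-1.46 ± 0.50, adjusted p = 0.038), a call kept in 2 of 6 runs. Interferon and inflammatory genes gave 8 rises and 4 falls among 39. B2m, the shared light chain of MHC class I, was at 14.8, 17.5 and 22.1 CPM at E8.5 and 147, 164 and 181 CPM at E9.5 (log2 difference 3.18 ± 0.30, adjusted p = 9.5e-08), while the class I heavy chain gene H2-K1, whose counts can be divided with near copies, was at 23.2, 9.22 and 27.3 CPM at E8.5 and 2.99, 4.01 and 5.99 CPM at E9.5 (log2 difference -2.20 ± 0.42, adjusted p = 7e-04). Tlr4, the receptor for bacterial lipopolysaccharide, rose from 2.37 ± 0.603 to 18.7 ± 2.10 CPM (2.98 ± 0.41, adjusted p = 2.1e-05), and Ifitm1 fell from 234 ± 54.3 to 23.6 ± 15.3 CPM (-3.31 ± 0.45, adjusted p = 1.6e-05), also with near copies. The rises in that list numbered 4 with only the 6 libraries and 5 without E8.5 replicate 1, E9.5 replicate 2 or E9.5 replicate 3, and its falls 2 without E9.5 replicate 1 or replicate 3. Of 25 AP-1 and immediate early genes, 5 rose and 2 fell (median -0.03), with 3 rises and 1 fall without E8.5 replicate 1, E8.5 replicate 2 or E9.5 replicate 3. Atf3, induced by stress, was at 214, 147 and 64.3 CPM at E8.5 and 23.3, 38.2 and 37.1 CPM at E9.5 (log2 difference -2.11 ± 0.42, adjusted p = 0.001), and Dusp6, a target of ERK signalling, at 81.0, 73.6 and 91.5 CPM at E8.5 and 211, 235 and 234 CPM at E9.5 (log2 difference 1.47 ± 0.22, adjusted p = 5.5e-05). Of 24 cholesterol synthesis genes, 5 rose, of which 3 were left without E9.5 replicate 2, and 2 without E8.5 replicate 1, E8.5 replicate 2 or E9.5 replicate 3 or with the length correction.

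The largest rises were of genes close to 0 at E8.5. Trpc6, a cation channel, had 0 counts over the E8.5 libraries and 985 at E9.5, at least 310-fold higher with E8.5 set to a limit of 3 counts, at 0, 0 and 0 CPM at E8.5 and 17.6, 12.7 and 11.7 CPM at E9.5. Slc40a1, the iron exporter ferroportin, had 0 and 699 counts, at least 220-fold higher, and its highest value was in E9.5 replicate 2 (0, 0 and 0 CPM at E8.5 and 5.28, 19.4 and 5.33 CPM at E9.5). Col15a1, a basement membrane collagen, had 1 and 2572 counts, a ratio of 2430 (95% counting interval 436 to 96100). Cd109, a surface protein that binds TGF-beta receptors, was at 0.322, 0.118 and 0.251 CPM at E8.5 and 64.3, 45.4 and 74.4 CPM at E9.5 (log2 difference 8.04 ± 0.56, adjusted p = 1.2e-09), so the change did not rest on a single library. Others of the 12 largest rises were the serine protease Prss23, with 1 and 1256 counts, Atxn1 (8.04 ± 0.62, adjusted p = 3.2e-09), the receptor phosphatase Ptpru, with 3 and 739 counts, the adhesion scaffold Nedd9 (6.88 ± 0.69, adjusted p = 1.8e-07) and Lrrc32, which anchors latent TGF-beta (6.87 ± 0.74, adjusted p = 6.1e-07). Esm1, Cyp26b1 and Gja5 complete them. Prss23 had a ratio of 1190 (213 to 46900) and Ptpru of 233 (79.4 to 1130).

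The largest falls were led by Aqp8, a water channel, at 103, 79.4 and 51.8 CPM at E8.5 and 0.333, 0 and 0.612 CPM at E9.5 (log2 difference -7.93 ± 1.77, adjusted p = 0.0033). Skap1, an adaptor protein known from T cells, was at 12.1, 8.24 and 16.5 CPM at E8.5 and 0.0416, 0 and 0.131 CPM at E9.5 (log2 difference -7.61 ± 1.32, adjusted p = 0.00028). Gadd45g, a stress and growth arrest gene, was at 889, 829 and 152 CPM at E8.5 and 24.8, 22.7 and 16 CPM at E9.5 and like Etv2 and Phlda2 was lowest at E8.5 in replicate 3 (log2 difference -4.88 ± 0.75, adjusted p = 7.4e-05). Anpep, an aminopeptidase, fell from 28 ± 11.2 to 0.546 ± 0.552 CPM (-5.67 ± 1.03, adjusted p = 0.00042), Foxh1, a partner of Smads in Nodal signalling, from 16.1 ± 8.46 to 0.289 ± 0.281 CPM (-5.78 ± 1.44, adjusted p = 0.0079) and Pyy, a peptide hormone gene, from 73.9 ± 43.3 to 1.61 ± 1.16 CPM (-5.52 ± 1.09, adjusted p = 0.0023). Lgals3bp (-5.08 ± 0.73, adjusted p = 3.5e-05) and Cited1 (-5.09 ± 1.24, adjusted p = 0.0051) were the next. Echdc2 (-4.65 ± 1.33, adjusted p = 0.015) lost its call without E9.5 replicate 1 (0.066) or replicate 3 (0.051). Nxf7 was at 23.9, 23.4 and 27.6 CPM at E8.5 and 0, 0.863 and 1.57 CPM at E9.5 (log2 difference -4.93 ± 1.70, adjusted p = 0.041) and lost its call whichever EC library was left out (0.066 to 0.13), with DESeq2 (0.085) and with the replicate block (0.056).

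The same interval was then compared with that in HE, which shares no library with EC. The fit treats EC and HE libraries of a day as separate, and whether they share a preparation was not tested. In HE 997 genes differed between E8.5 and E9.5 (6.54%), 452 higher (2.97%) and 545 lower (3.58%). Of the EC rises, 277 were also called higher in HE (18.0% of the EC list and 61.3% of the HE list), and of the EC falls 455 were also called lower in HE (31.2% and 83.5%). Only 2 genes were called higher in EC and lower in HE, and 6 the reverse. The test of the difference between the changes called 129 genes (0.847%), with a more positive change in EC for 104 (0.683%) and a more negative one for 25 (0.164%). Of these 129, 119 were also called in EC, 100 as rises and 19 as falls. The count was 83 and 84 without E9.5 HE replicates 2 and 1, the lowest of the runs that left out a library, and 75 when only the 13 libraries of the 4 groups were fitted.

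Cd109 had the smallest p for this difference (7.70 ± 0.66, adjusted p = 1.1e-07). Its mean was 0.230 ± 0.104 CPM in E8.5 EC and 100.2 ± 68.2 in E8.5 HE, and 61.3 ± 14.7 and 127 ± 4.91 at E9.5 (n = 4 and 3 in HE). Sema6d, a transmembrane semaphorin, was at 5.12, 3.02 and 4.14 CPM at E8.5 and 128, 87.3 and 147 CPM at E9.5 in EC, and at 75.2 ± 48.6 and 146 ± 22.9 CPM in HE (3.93 ± 0.52, adjusted p = 0.00012). Clu, which encodes the secreted chaperone clusterin, rose in EC from 8.05 ± 2.77 to 31.9 ± 4.48 CPM (1.99 ± 0.33, adjusted p = 0.00016) and fell in HE from 290.4 ± 61.9 to 109 ± 24.4 CPM (-1.41 ± 0.30, adjusted p = 0.0063), a difference of 3.41 ± 0.44, adjusted p = 0.00012. The difference was in the other direction for Runx1 (-3.76 ± 0.50, adjusted p = 0.00012), which stood at 2.76 ± 1.16 and 35.0 ± 3.67 CPM in HE and did not pass the test in EC. Trpc6 and Atxn1 completed the 6 smallest p, with HE means of 5.16 and 13.2 CPM for Trpc6 and 9.69 and 39.4 CPM for Atxn1. All 6 passed under every alternative that was run for this difference.

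Of the 25 arterial and Notch genes tested, 2 had a more positive change in EC than in HE and 2 a more negative one. The more positive ones were Gja5 (4.95 ± 1.01, adjusted p = 0.0099) and Dll1, whose fitted difference rests on 1 count at E8.5. Jag1 fell in EC and rose in HE, from 173 ± 47.8 to 403 ± 43.8 CPM (1.22 ± 0.30, adjusted p = 0.016), with a difference of -3.04 ± 0.45, adjusted p = 0.00043. Gja4 fell in EC, while in HE it stood at 344 ± 101 and 432 ± 108 CPM (-2.38 ± 0.48, adjusted p = 0.0088 for the difference). Emcn and Cd93 had larger positive changes in EC than in HE (2.61 ± 0.59, adjusted p = 0.025 and 2.26 ± 0.44, adjusted p = 0.0065), from lower E8.5 means: 33.8 CPM in EC against 276 in HE for Emcn, and 83.6 against 606 for Cd93. For Cdh5 (1.05 ± 0.39, adjusted p = 0.34), Klf2 (0.26 ± 0.53, adjusted p = 0.98), Etv2 (-0.66 ± 0.97, adjusted p = 0.95) and Myc (-0.77 ± 0.59, adjusted p = 0.81) no difference between EC and HE was called. The HE change of Etv2 was -4.01 ± 0.78, adjusted p = 0.0031, and that of Myc -1.62 ± 0.42, adjusted p = 0.021.

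**Figure D4:**
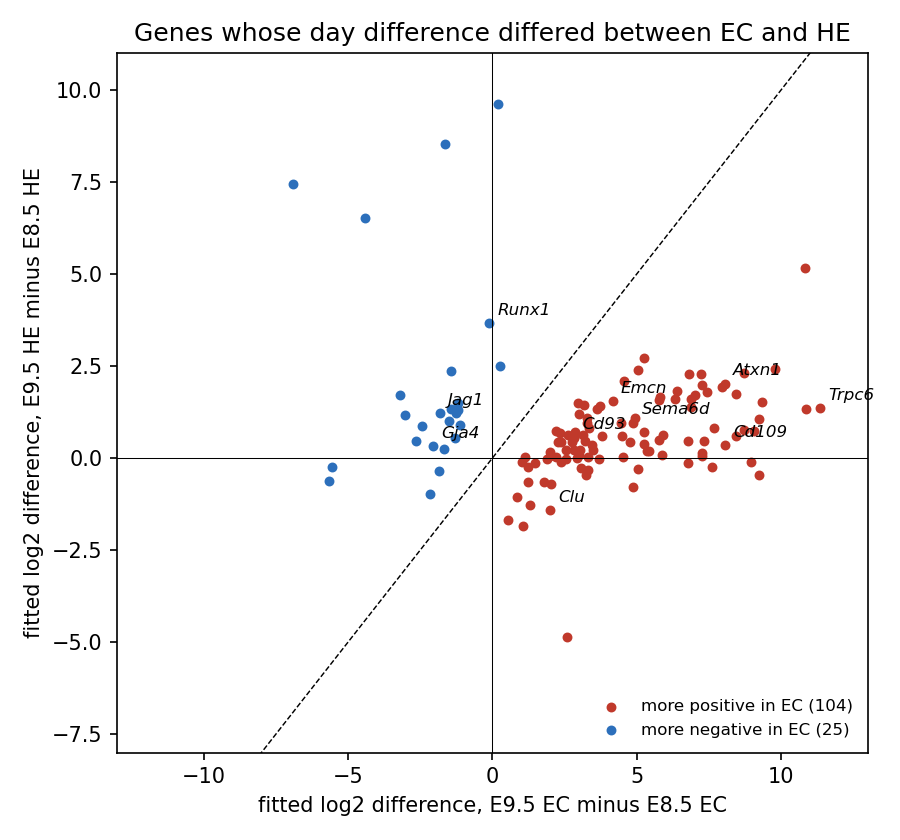
Fitted log2 difference between E9.5 and E8.5 in EC (x axis) and in HE (y axis) for the 129 genes whose differences were called unequal; the dashed line marks equality, and values of genes without counts in a group are fitted and not bounds. Of these points 100 were called as rises in EC, and Runx1 lies near 0 in EC with a rise in HE.

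Fewer genes were called in EC over the following day. Between E9.5 and E10.5, 116 genes were called (0.761%), 47 higher and 69 lower. That comparison shares the E9.5 EC libraries and differs in tissue label, so only levels are set side by side. Emcn averaged 33.8, 602 and 1035 CPM on the 3 days, and Cdh5 105, 518 and 414. Gja4 averaged 272, 65.5 and 167 CPM, and Ednrb 137, 33.2 and 103. Etv2 averaged 421, 16.5 and 9.32 CPM, and Lin28a 316, 112 and 22.4. The means of Emcn and of Klf4 (1.43, 8.66 and 34.8 CPM) were highest on the last day, and those of Etv2 and Lin28a lowest.

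Markers of other cells that a sort could include moved in part with the day. Of 19 tested markers of mesenchyme and smooth muscle, 5 were called higher, with 1 left without E9.5 replicate 3 or E8.5 replicate 1, 2 without E8.5 replicate 2 and 3 without E8.5 replicate 3. The list had 4 rises and 5 falls with voom and 3 rises and 2 falls with only the 6 libraries. Acta2 was at 3.38, 7.85 and 5.33 CPM at E8.5 and 16.3, 18.6 and 136 CPM at E9.5. Col3a1 was at 1.81, 1.41 and 5.39 CPM at E8.5 and 18.1, 14.7 and 107 CPM at E9.5. Lum was at 0, 0 and 0 CPM at E8.5 and 0.0416, 0 and 35.5 CPM at E9.5. For these 3 genes E9.5 replicate 3 stood above all others. Without it the log2 difference of Acta2 was 1.67 (adjusted p = 0.25) and that of Col3a1 2.55 (0.2). Lum was not called by voom (0.21) or with the replicate block (0.1). Tagln, described above, is a further called member of this list and did not depend on that library. It was higher in every E9.5 library than in every E8.5 library, and kept its call whichever EC library was left out.

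Of 18 cardiac markers tested, 1 was called higher and 1 lower, with a median log2 difference of -0.20 and summed levels of 92.6 to 115 CPM at E8.5 and 55.5 to 114 CPM at E9.5 (sums are over all listed markers, tested or not). The rise was the cardiac and skeletal actin gene Actc1, at 1.17, 0.706 and 0.0627 CPM at E8.5 and 0.582, 1.597 and 42.5 CPM at E9.5 (adjusted p = 0.042, and 0.81 without E9.5 replicate 3), and it was not called by voom (0.48), with only the 6 libraries (0.077) or with the replicate block (0.073). The fall was the atrial myosin light chain gene Myl7, at 16.7, 23.5 and 18.1 CPM at E8.5 and 1.37, 3.11 and 5.64 CPM at E9.5 (log2 difference -2.52 ± 0.83, adjusted p = 0.034), a call kept in 2 of the 6 runs without an EC library. Of 9 somite markers, Foxc1, Lfng and Dll1 were called higher (median 2.04), and the summed level went from 13.9 to 22.5 CPM at E8.5 to 47.1 to 88.5 at E9.5. Of 10 mesonephros markers, Gata3 and Eya1 were called higher (median 1.30), with sums of 16.1 to 27.2 and 43.8 to 51.2 CPM. Neural markers summed to 15.9 to 27.8 CPM at E8.5 and 70.6 to 192 at E9.5, with Nes (2.61 ± 0.53, adjusted p = 0.0012) and Stmn2 (4.16 ± 0.88, adjusted p = 0.0016) called among 8 tested. The log2 difference of Stmn2 was 7.08 without E8.5 replicate 1. The part of these cells in the differences reported above was not tested. Of 14 platelet markers, 1 was called higher and 2 lower, with sums of 52.4 to 69.7 CPM at E8.5 and 114 to 150 CPM at E9.5. The rise was Clec1b, which encodes the podoplanin receptor CLEC-2, at 9.59, 13.4 and 15.3 CPM at E8.5 and 102, 137 and 127 CPM at E9.5 (log2 difference 3.26 ± 0.43, adjusted p = 1.1e-05), whereas Itga2b, which encodes CD41, fell from 25.8 ± 7.77 to 5.67 ± 1.05 CPM (log2 difference -2.19 ± 0.44, adjusted p = 0.0011) and Ppbp had 0 counts in 5 of 6 libraries. The summed level of erythroid markers was 92.1 to 108 CPM at E8.5 and 51.1 to 91.2 at E9.5. Of 15 macrophage and granulocyte markers tested, a list that includes Ptprc, Laptm5 and Fcer1g were called higher and 0 lower. Both calls were kept whichever EC library was left out, and lost with only the 6 libraries (adjusted p = 0.059 and 0.05). The list summed to 12.8 to 50.3 CPM at E8.5 and 31.4 to 35.4 CPM at E9.5. Of 15 endoderm and epithelium markers tested, Sox17 was called higher and Pdx1 lower, with sums of 92.4 to 138 CPM at E8.5 and 49.8 to 150 CPM at E9.5. The call of Pdx1 was kept in 2 of the 6 runs without an EC library and lost with DESeq2 (0.31). Of 8 germ cell markers 1 was called higher and 0 lower, and of 3 mast cell markers 0 were called. The part of such cells was not tested either.

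The differences also ran with gene length, the summed exon length given in the deposited table. Across genes, which are not independent replicates, Spearman's rho between length and log2 difference was 0.257 in EC, 0.241 in HE and -0.023 for E10.5 against E9.5 EC. With genes split by length into 5 classes of equal size, the median log2 difference went from -0.37 in the shortest class to 0.56 in the longest. The share called higher went from 4.13 to 20.8%, and the share called lower from 15.8 to 2.49%. The median length was 4218 bases for genes called higher and 1970 for genes called lower. A correction for this trend, added after seeing the data, shifted the median of all genes from 0.05 to -0.07. It called 1129 genes higher (38.9% of calls, against 51.5% without it) and 1770 lower, with 2362 of the 2999 calls kept. A like correction for GC content called 1313 higher (40.8%) and 1902 lower. With the length correction pan-endothelial genes had 12 rises and 1 fall, arterial genes 10 and 2, glycolysis and hypoxia genes 3 and 14, and S phase genes 0 and 17. Among genes named above, Tie1, Flt1, Nr2f2, Ephb4, Nos3, Procr, Hhex, Hmga2, Rxra and Col3a1 lost their calls with it. Whether the trend with length belongs to the day or to the processing cannot be told apart.

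**Figure D5:**
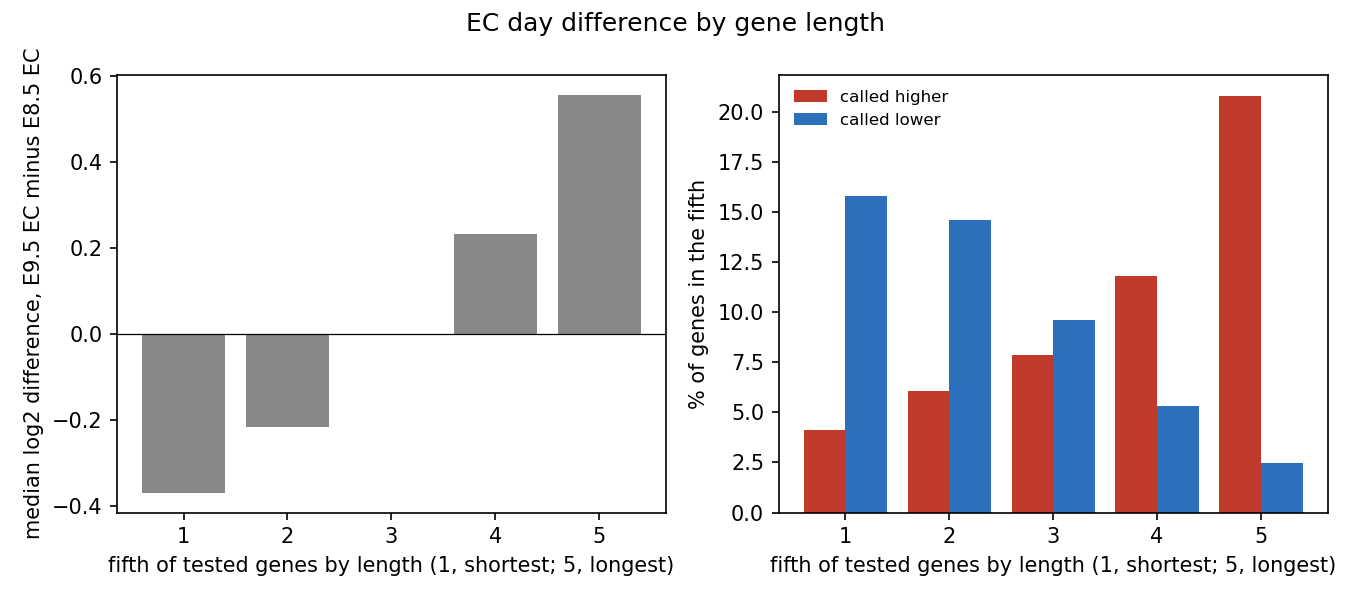
Median log2 difference between E9.5 and E8.5 EC (left) and % of genes called higher or lower (right) in each of 5 equal classes of the 15238 tested genes by length, from shortest to longest. The median climbs from -0.37 to 0.56 over the classes.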

How the data were processed

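Each library was amplified from 100 sorted cells (SMARTer Ultra Low Input chemistry, according to the protocols in the labels). The deposited table holds the authors' raw read counts per gene for 28 libraries, with exon coordinates and length, per the file headers. The submitters' processing notes name TopHat, SAMtools, Subread, featureCounts 1.6.2 and mm9, without roles. Whether strand was used, how multiply mapped reads were treated and which annotation release served are not known from these sources, so counts of near copies and overlapping genes are uncertain. Library totals were 20234652 to 31405603 counts in the 6 EC libraries.

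Counts were fitted in R 4.3.3 with edgeR 4.0.16 (quasi-likelihood test, TMM factors, filterByExpr with a count minimum of 10), with 1 coefficient per population over all 28 libraries, which share 1 estimate of the spread. Benjamini-Hochberg adjusted p under 0.05 was called, and ± after a log2 difference is its SE. Of 24015 genes 15238 were tested. All tests were two-sided, and none was made on gene lists, which are described by counts and medians. Ratios of genes with 1 to 3 counts carry exact 95% intervals on the counts, and 0 was set to a limit of 3 counts over the group; both cover counting error only. DESeq2 1.42.0, limma 3.58.1 (voom), other scalings and filters, fewer libraries and a replicate block were alternatives. Corrections for gene length and GC content were lowess offsets per library (span 0.3), chosen after seeing the data. On simulated counts the fit recovered 28.4% of 2-fold changes, 95.5% of 4-fold and 100% of 8-fold, with 6 false calls among 155. Lack of a call therefore does not exclude a 2-fold difference, or a larger one for genes of low or more variable counts.

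The members and gene lists were chosen with earlier results of these data known. Genes named are the 12 largest rises and falls among called genes whose days do not overlap and whose higher mean reaches 10 CPM, a panel, up to 4 called members per list and direction by smallest p, the 6 smallest p for the difference between EC and HE, and markers of other cells. Nop2, Utp18, Rn45s and the genes of the closing observations were chosen after their values were seen. Libraries of the blood precursor populations entered only the shared estimate of the spread. Promoter windows are from RefSeq on GRCm38.p6, while the counts use mm9, so no coordinates of the 2 builds are combined. Windows were matched by symbol for 11308 of the 15238 tested genes.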

Additional observations from a re-analysis of the deposited data

Results flagged for a closer look

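The change from E8.5 to E9.5 differed between EC and HE, by the edgeR test of that difference, for 33 genes described or eligible to be named here. Values are the EC change minus the HE change on the log2 scale. Those of the largest rises were 7.70 for Cd109, 6.01 for Atxn1, 7.87 for Esm1, 5.63 for Cyp26b1, 4.95 for Gja5, 5.50 for Nedd9 and 5.28 for Lrrc32. Where EC had 0 to 3 counts at E8.5 the fitted difference depends on the prior count and is no bound: 9.98 for Trpc6, 9.52 for Slc40a1, 5.67 for Col15a1, 7.37 for Prss23, 6.88 for Ptpru, 6.42 for Dll1 and 9.03 for Eya1, a factor of the kidney and muscle lineages.

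Genes of endothelium, flow response or vascular tone with a more positive change in EC were Emcn (2.61), Cd93 (2.26), Stab1 (1.94), Mef2c (1.80), Pde2a (4.54) and the potassium channel gene Kcnj2 (4.87). The same held for Sema6d (3.93), Clu (3.41), Tgfbr2 (1.67), Tcf7l2 (1.10), B2m (1.73), Tlr4 (2.90), Dusp6 (1.59) and Clec1b (3.71). A more negative change in EC was found for the arterial genes Jag1 (-3.04) and Gja4 (-2.38), for Procr (-2.75), for Anpep (-5.05) and for Runx1 (-3.76).

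Among the 4 E8.5 HE libraries, Runx1 was at 1.03 CPM in the lowest, far from the other values for a group of that size. Chance sets apart about 1 in 20 such groups.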

How the results depend on the processing

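With 100 cells a library, low counts limit precision: genes with 0 counts in a group have bounds only, and fitted values of genes near 0 are imprecise. No named gene changed direction while called in either fit, and 179 of 196 named genes kept their call or lack of one with the length correction. Leaving out each EC library in turn gave 1714 to 2920 calls between the days, 1012 to 1465 of them higher and 702 to 1455 lower. DESeq2 called 3801 genes, of which 2970 were among the 2999. Voom with quality weights called 5559, with 2729 higher and 2830 lower, and held 2913 of the 2999. For the difference between the EC and HE changes, DESeq2 called 293 genes (224 positive, 69 negative), voom 289 (219 and 70), and the fit of only the libraries of the 4 groups 75 (64 and 11). Without the filter on low counts 38 were negative. Leaving out single EC or HE libraries gave 83 to 182 such genes, with 66 to 152 positive and 15 to 30 negative. Causes were not tested. When the arm of a day had lost a library, its spread was taken from all groups.

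Same-numbered E8.5 and E9.5 EC libraries did not deviate together (correlations of deviations 0.02, -0.07 and -0.01), so the numbers were not taken to pair them. That check did not cover EC and HE libraries of the same day. Rn45s took 1.77, 1.02 and 2.34% of counts in E9.5 EC replicates 1 to 3, and 1.54, 1.42 and 2.65% in E9.5 HE. At E8.5 the shares were 0.188, 0.396 and 0.605% in EC, and 0.227, 0.617, 0.571 and 0.34% in HE. Whether same-numbered EC and HE libraries share a preparation was not tested. With a replicate block 3300 genes were called, 2915 of them among the 2999, and 119 for the difference between EC and HE.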

Other observations

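Further gene families were picked after their values were seen and are given without a test. Of 77 mitochondrial ribosomal proteins tested, 36 were called lower at E9.5 and the median log2 difference was -0.74, with a median length of 1053 bases. Of 45 genes with Psm symbols, most of them proteasome subunits, 22 were called lower (median -0.82, length 1344 bases). These falls include Psmc3ip, Psmg1 and Psmg3, which are not subunits. Of 17 tRNA synthetases, 10 were called lower (median -0.82, length 2874 bases). Chaperonin subunits gave 5 falls among 8 (median -0.85). Genes with Eif symbols, most of them translation initiation factors, gave 15 falls and 2 rises among 52 (median -0.36). They include regulators that are not initiation factors, among them Eif2ak2, which rose, and Eif4ebp1, which fell. Among 27 genes with Sema or Plxn symbols, 6 rose (median 1.36, length 6521 bases). They are semaphorins and plexins except Plxna4os1, an antisense transcript that was not called. Rises numbered 6 of 22 cadherins and protocadherins outside the clusters (median 1.82) and 4 of 18 Eph receptors and ephrins (median 0.94). The share called higher in the longest of the 5 length classes was 20.8%. Gimap genes, small GTPases known from lymphocytes, gave 3 rises and 1 fall among 8.

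Xist, transcribed from the inactive X chromosome, and the Y-linked gene Ddx3y were both detected in all 6 EC libraries. Xist was at 10.6, 31.6 and 30.1 CPM at E8.5 and 86.8, 34.1 and 96.1 CPM at E9.5, and Ddx3y at 58.9, 33.2 and 55.2 CPM and at 46.1, 101 and 77.2 CPM.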
